A study of Homo sapiens with 22 samples.

Results

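The genes described here are 33 genes of glycolysis and of the cellular response to low oxygen, chosen by name. They comprise 15 glycolytic enzymes, 2 regulators of the phosphofructokinase step, 2 lactate dehydrogenase subunits, 4 sugar and lactate transporters, 2 pyruvate dehydrogenase kinases, the hypoxia factor HIF1A and 7 genes known as its targets. All 33 were among the 48649 genes kept from the deposited table, and all 33 were among the 21326 tested. CA9 was the member nearest to the limit of detection.

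The 22 RNA-seq libraries were labelled as RWPE1, an immortalized human prostate epithelial line, in 4 groups. Vector (6 libraries) carried an empty vector, an altered pTRIPZ. The group labelled NKX3.1 (6) overexpressed the wild type of this prostate homeodomain factor, R52C (6) overexpressed the form NKX3.1(R52C), and T164A (4) was labelled NKX3.1 (T164A). Every title names paraquat, a redox-cycling herbicide that generates superoxide, but the treatment tag is missing from 3 of the 4 T164A libraries. All groups thus share the titled treatment, and without an untreated library its effect cannot be told. The sources used here do not say whether a group came from 1 clone or pool, or whether its libraries are separate cultures. The p-values therefore reflect the spread among the libraries as sequenced, and that spread may be technical.

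Marker genes set the groups apart although all carry the label of a single line, and the group names below are those of the labels. TP63, a defining factor of basal prostate epithelium, had a mean log2 level of 11.12 in T164A, 11.99 in NKX3.1 and 12.36 in Vector, and was under the detection floor of 3 in all 6 R52C libraries. KLK3, which encodes the luminal protein PSA, was at 16.58 in R52C, 14.84 in NKX3.1 and 12.79 in Vector, and under the floor in all 4 T164A libraries. IRS4 reached 13.64 in T164A and lay below the floor in every Vector and NKX3.1 library. The log2 of the summed signal of the 6 basal markers lay between 10.77 and 11.04 for R52C, 17.06 and 17.23 for NKX3.1, 17.37 and 17.68 for Vector, and 16.61 and 16.73 for T164A. For the 6 luminal markers the ranges were 17.53 to 17.58, 15.67 to 15.94, 13.14 to 14.27, and 9.83 to 9.86 in the same order. Of the fibroblast, endothelial and immune markers, CDH5, PTPRC and CD3E were under the floor on average in every group, COL1A1 was at 8.05 to 10.67, and COL3A1 was above the floor in T164A alone, at 6.68. PDGFRB, a fibroblast marker, had a mean of 4.79 in R52C, 3.85 in T164A, 3.45 in NKX3.1 and one below the floor in Vector. CD68, of the immune markers, had means of 6.88 in R52C, 8.38 in T164A, 8.99 in NKX3.1 and 9.04 in Vector. VWF, an endothelial marker, was at 8.03 in R52C, 6.18 in NKX3.1 and 4.57 in Vector, and in T164A it was below the floor. A set of 90 genes that were high in R52C but not detected in T164A, none of them a member, gave an estimate of how much of each library's RNA matched R52C. This R52C-like share was 95.8% to 101.8% for R52C, 24.8% to 30.7% for NKX3.1, 5.62% to 10.3% for Vector and 0.186% to 0.202% for T164A. The values for R52C and T164A were set by the choice of these genes and of R52C replicates 4 to 6 as the reference. Only those for NKX3.1 and Vector are estimates. Transcripts of mitochondrial DNA made up 6.12% to 6.66% of the signal for R52C, 7.59% to 7.77% for T164A, 14.2% to 16.2% for NKX3.1 and 15.03% to 16.9% for Vector. In such bulk samples fewer cells of a type and less RNA per cell cannot be told apart, and the part of the cell makeup in the differences below was not tested.

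Glycolysis splits glucose into pyruvate in the cytosol and yields ATP without oxygen. Glucose enters through SLC2A transporters, hexokinase traps it by phosphorylation, phosphofructokinase commits it to breakdown, and lactate dehydrogenase can turn the pyruvate into lactate, which leaves through SLC16A transporters. When oxygen falls, the prolyl hydroxylases of the EGLN family no longer mark HIF1A for destruction, and the stabilized protein pairs with ARNT and binds response elements near genes of sugar uptake, glycolysis, mitochondrial clearance and vessel growth. HIF1A is thus controlled mostly at the protein level, which RNA-seq does not measure.

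The response element has the core ACGTG or GCGTG. The upstream 250 bases of 6 members are shown because, among the 19 members with a single start site in the RefSeq promoter table (assembly GRCh38.p14), they had the 4 largest rises and the 2 largest falls in R52C against Vector. Each is read 5′ to 3′ on the gene's strand and ends at the base before the transcription start. Capitals mark the core on either strand, so that CACGT and CACGC are the reverse reading, and CACGTG is read as a core on both strands at once and counted as 1 site.
ALDOC: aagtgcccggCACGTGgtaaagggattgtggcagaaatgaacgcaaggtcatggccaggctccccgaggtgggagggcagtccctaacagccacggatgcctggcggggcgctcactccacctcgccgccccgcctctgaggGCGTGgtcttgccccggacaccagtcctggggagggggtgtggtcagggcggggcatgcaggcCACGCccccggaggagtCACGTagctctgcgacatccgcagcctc
EGLN3: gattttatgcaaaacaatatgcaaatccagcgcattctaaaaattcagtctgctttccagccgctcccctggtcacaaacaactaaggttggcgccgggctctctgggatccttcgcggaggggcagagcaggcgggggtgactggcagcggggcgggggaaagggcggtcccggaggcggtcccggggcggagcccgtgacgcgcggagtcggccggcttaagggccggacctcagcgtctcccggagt
BNIP3: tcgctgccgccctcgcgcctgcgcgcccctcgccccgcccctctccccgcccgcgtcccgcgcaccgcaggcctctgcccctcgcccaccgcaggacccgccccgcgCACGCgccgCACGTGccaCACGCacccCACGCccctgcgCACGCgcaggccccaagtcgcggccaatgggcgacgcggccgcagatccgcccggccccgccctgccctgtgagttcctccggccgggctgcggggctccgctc
P4HA1: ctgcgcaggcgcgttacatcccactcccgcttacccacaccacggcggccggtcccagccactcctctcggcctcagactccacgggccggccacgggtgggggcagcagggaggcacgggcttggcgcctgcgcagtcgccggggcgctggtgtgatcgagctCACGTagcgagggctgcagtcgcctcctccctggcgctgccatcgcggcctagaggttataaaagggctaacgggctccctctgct
ADM: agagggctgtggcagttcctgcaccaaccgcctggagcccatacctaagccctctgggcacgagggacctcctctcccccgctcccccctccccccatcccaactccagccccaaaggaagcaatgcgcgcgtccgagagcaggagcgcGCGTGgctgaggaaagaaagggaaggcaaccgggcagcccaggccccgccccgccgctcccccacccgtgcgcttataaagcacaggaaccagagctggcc
SLC2A1: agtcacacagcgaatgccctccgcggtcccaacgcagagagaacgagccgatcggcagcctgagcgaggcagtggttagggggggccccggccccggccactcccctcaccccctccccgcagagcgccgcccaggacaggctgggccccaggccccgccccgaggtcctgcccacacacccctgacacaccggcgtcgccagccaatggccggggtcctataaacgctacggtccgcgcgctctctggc
ALDOC lies at chr17:28576896-28577145 on the minus strand, EGLN3 at chr14:33951075-33951324 minus, BNIP3 at chr10:131981924-131982173 minus, P4HA1 at chr10:73096867-73097116 minus, ADM at chr11:10304823-10305072 plus and SLC2A1 at chr1:42958869-42959118 minus. BNIP3 held 5 sites, ALDOC 4, P4HA1 and ADM 1 each, and EGLN3 and SLC2A1 none in this window. Of the 57 promoters listed for 30 members, 57.9% held the core, against 43.2% of all 35116 promoters of the same length. Counted by gene, 83.3% of these members held it in at least 1 promoter, against 47.4% of all genes. The members were chosen by name, some of them as known HIF1A targets, so these shares are not a result of the libraries. Among members with a single start, 11 of the 14 that were higher in R52C and 3 of the 4 that were lower held it, beside 42.2% of all 22114 genes with a single start. A match is only these letters, and no match says only that they are not in this window.

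The first comparison, R52C against Vector, asked how the libraries with the R52C form differed from those with the empty vector. The enzymes of glycolysis were mostly higher in R52C, and the transporters were mostly lower. Of the 33 members, 21 were higher and 11 lower at an adjusted p under 0.05, when 83.8% of all genes tested were called, 42.2% higher and 41.6% lower. At a change of at least 2-fold, 15 members were higher and 5 lower, beside 21.2% and 23.6% of all genes. The libraries of both groups did not overlap for 21 members that were higher and 10 that were lower, as for 35.8% and 34.9% of all genes. The median change of the members was 0.66 on the log2 scale and that of all genes 0.01. The median level of R52C libraries lay below that of Vector, at a difference of -0.13, and at equal medians 22 members were higher and 10 lower. Several of these genes, GAPDH, PGK1, PGAM1, LDHA, LDHB, ENO1, TPI1, ALDOA and BNIP3 among them, have pseudogenes of near-identical sequence, and how reads were shared among the copies is not given in the sources used here.

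**Figure D1:**
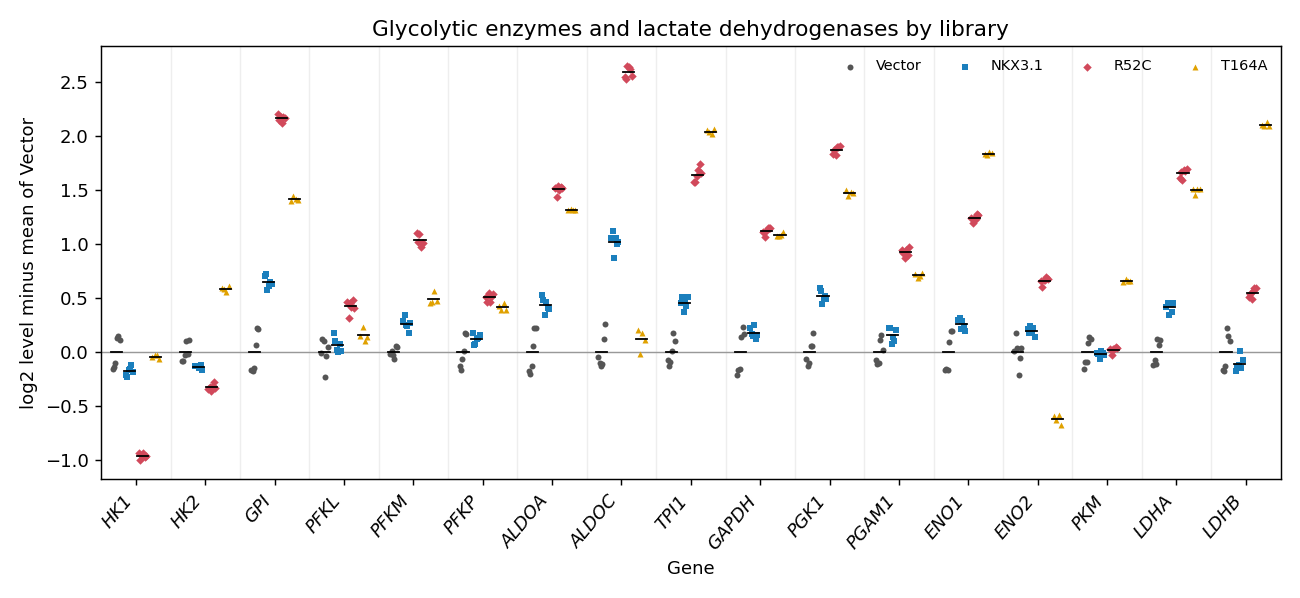
Deposited log2 levels of the 15 glycolytic enzymes and both lactate dehydrogenase subunits in each library, drawn as the difference from the mean of the 6 Vector libraries; black bars are group means. In 13 of the 15 enzymes and in both lactate dehydrogenases the R52C libraries sit above 0 on average, with ALDOC highest at 2.59, while HK1 and HK2 sit below.

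Of the 15 enzymes, 12 were higher in R52C, 8 of them by at least 2-fold, and the 2 hexokinases were lower. GPI, which interconverts glucose- and fructose-6-phosphate, had a lowest, median and highest level of 11.17, 11.30 and 11.57 in Vector, 11.92, 11.99 and 12.07 in NKX3.1 and 13.47, 13.52 and 13.56 in R52C, and 12.75, 12.79, 12.77 and 12.76 in T164A replicates 1 to 4. The 4 groups did not overlap, and R52C was highest. The change in R52C was 2.17 ± 0.055 (log2 ± SE), a 4.49-fold rise (limma adjusted p = 5.1e-23).

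ALDOC, the aldolase isozyme best known from brain, had 8.67, 8.72 and 9.05 in Vector, then 9.67, 9.83 and 9.91 in NKX3.1 and 11.32, 11.38 and 11.44 in R52C, with 8.99, 8.78, 8.96 and 8.90 in T164A. Vector and T164A overlapped, NKX3.1 lay above both and R52C above all. Its 6.04-fold rise in R52C was 2.59 ± 0.056 (limma adjusted p = 1.71e-24). ALDOA, the main aldolase of muscle and of most proliferating cells, rose by 1.51 ± 0.057, from 12.77 ± 0.20 (mean ± SD, n = 6) to 14.28 ± 0.038 (n = 6).

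The steps from triose phosphate to pyruvate were unequal. TPI1, which equilibrates the triose phosphates, had 11.07, 11.17 and 11.38 in Vector, then 11.57, 11.66 and 11.71 in NKX3.1 and 12.77, 12.85 and 12.94 in R52C, with 13.26, 13.24, 13.22 and 13.26 in T164A. The groups stood in that order without overlap, with a change of 1.65 ± 0.043 in R52C. PGK1, which makes the first ATP of the pathway, had 11.80, 11.92 and 12.10 in Vector, then 12.37, 12.43 and 12.52 in NKX3.1 and 13.75, 13.81 and 13.84 in R52C, with 13.43, 13.37, 13.41 and 13.39 in T164A. R52C was highest and Vector lowest, with a change of 1.87 ± 0.039 (limma adjusted p = 6.62e-25). GAPDH rose from 13.43 ± 0.20 to 14.56 ± 0.032, a change of 1.13 ± 0.057. This dehydrogenase is a usual reference gene, and it was not at 1 level across these groups. ENO1, the ubiquitous enolase, rose from 13.15 ± 0.18 to 14.39 ± 0.030, by 1.24. PGAM1, the mutase before it, rose from 9.61 ± 0.11 to 10.54 ± 0.036, by 0.93. The neuronal enolase ENO2 rose by 0.66, from 9.60 ± 0.13 to 10.26 ± 0.031. PKM, the pyruvate kinase of most tissues, was at 14.28 ± 0.13 in Vector and 14.30 ± 0.026 in R52C, and this difference of 0.024 missed the threshold (limma adjusted p = 0.57). Its call changed with scaling, and at equal library medians PKM was 0.16 higher in R52C, and with Vector replicates 4 to 6 alone it was lower (-0.09).

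The 3 phosphofructokinase subunits all rose, PFKM by 1.04 to 11.83 ± 0.052, PFKP by 0.51 to 11.46 ± 0.036 and PFKL by 0.42 to 11.86 ± 0.058. Their means in Vector were 10.80 ± 0.046, 10.95 ± 0.15 and 11.44 ± 0.13. The bifunctional enzymes PFKFB3 and PFKFB4, which set the level of the phosphofructokinase activator fructose-2,6-bisphosphate, went the other way. PFKFB3 fell from 10.56 ± 0.17 to 9.58 ± 0.069 (fell by 0.98), and PFKFB4 was at 9.72 ± 0.33 in Vector and 9.44 ± 0.034 in R52C. The groups overlapped for PFKFB4, and its fall was no longer called at equal library medians or with Vector replicates 4 to 6 alone, where it was at 0.02. Hexokinase 1 was at 12.09 ± 0.15 in Vector and 11.13 ± 0.026 in R52C, and hexokinase 2 at 10.73 ± 0.086 and 10.40 ± 0.027. HK1 was 1.94-fold lower and HK2 1.25-fold lower, and neither overlapped Vector.

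LDHA, the lactate dehydrogenase subunit that favours lactate formation and is a known HIF1A target, had 12.29, 12.41 and 12.53 in Vector, then 12.75, 12.85 and 12.87 in NKX3.1 and 13.999, 14.08 and 14.11 in R52C, with 13.92, 13.86, 13.92 and 13.92 in T164A. R52C lay above T164A, with 1 replicate of T164A lower than the rest, and both lay well above Vector. The change in R52C was 1.66 ± 0.038, or 3.15-fold (limma adjusted p = 7.74e-24). LDHB, the subunit of oxidative tissues such as heart, rose less, by 0.55 ± 0.053, to 12.48 ± 0.044.

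**Figure D2:**
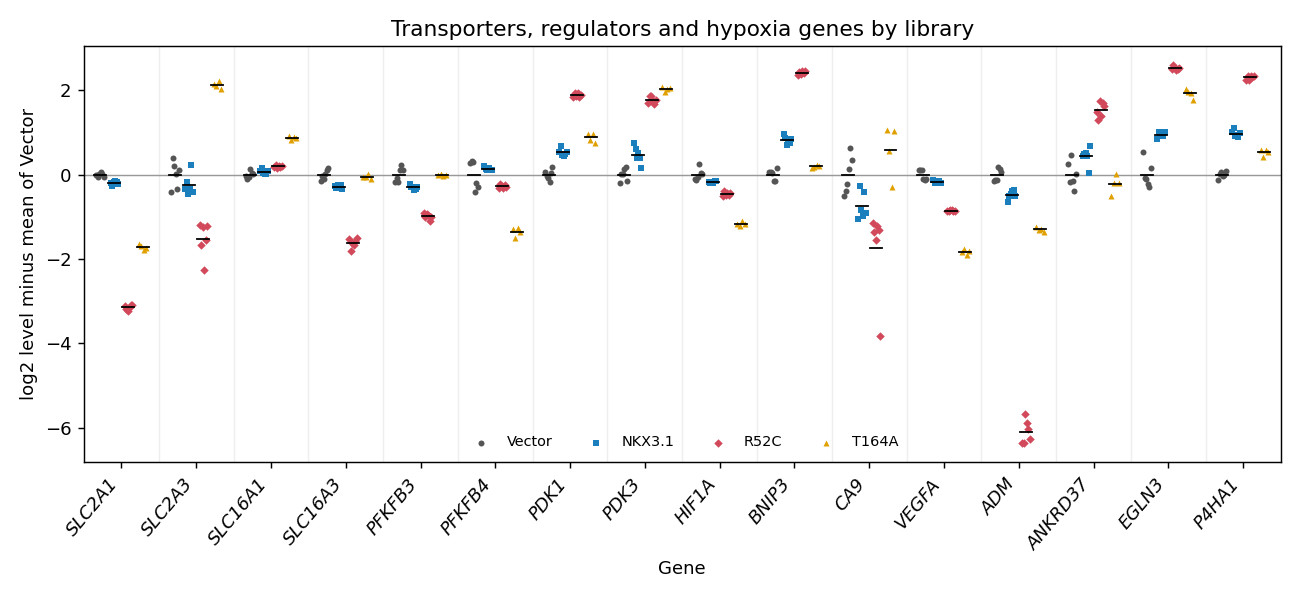
Deposited log2 levels of the transporters, regulators, kinases and hypoxia genes in each library, drawn as the difference from the mean of the 6 Vector libraries; black bars are group means. ADM in R52C sits about 6 units below Vector and SLC2A1 3.15 below, while BNIP3, EGLN3 and P4HA1 sit more than 2 above; values of CA9 and ADM under the floor of 3 are noise.

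Of the 4 transporters, 3 fell in R52C. SLC2A1, which encodes the glucose transporter GLUT1, had 13.03, 13.08 and 13.15 in Vector, then 12.81, 12.89 and 12.93 in NKX3.1 and 9.85, 9.93 and 9.99 in R52C, with 11.44, 11.40, 11.30 and 11.35 in T164A. The 4 groups did not overlap, and R52C was lowest. GLUT1 transcript was 8.89-fold lower in R52C, at -3.15 ± 0.031 (limma adjusted p = 6.62e-32). SLC2A3, the high-affinity transporter GLUT3, had 5.31, 5.77 and 6.11 in Vector, then 5.24, 5.37 and 5.93 in NKX3.1 and 3.44, 4.31 and 4.52 in R52C, with 7.86, 7.81, 7.94 and 7.75 in T164A, so that it was lowest in R52C and highest in T164A. The lactate exporter MCT4, encoded by SLC16A3, was at 10.60 ± 0.12 in Vector and 8.98 ± 0.11 in R52C, or 3.07-fold lower. SLC16A1, which encodes MCT1, rose by 0.20, to 11.91 ± 0.026.

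The pyruvate dehydrogenase kinases, which shut pyruvate out of the mitochondrial oxidation, both rose in R52C. PDK1, a known HIF1A target, had 8.12, 8.29 and 8.47 in Vector, then 8.73, 8.81 and 8.97 in NKX3.1 and 10.14, 10.16 and 10.23 in R52C, with 9.26, 9.12, 9.25 and 9.05 in T164A. Every group was separate from the others, with R52C highest. PDK3 rose from 6.41 ± 0.16 to 8.18 ± 0.076, by 1.77 ± 0.083.

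The genes known as HIF1A targets were split. HIF1A itself, whose locus also carries antisense transcripts that could not be separated here, fell from 12.17 ± 0.14 to 11.71 ± 0.043 (fell by 0.46). BNIP3, a receptor for the clearance of mitochondria, had 9.18, 9.39 and 9.49 in Vector, then 10.05, 10.18 and 10.31 in NKX3.1 and 11.72, 11.77 and 11.79 in R52C, with 9.51, 9.51, 9.58 and 9.55 in T164A. R52C stood alone at the top, 5.36-fold above Vector (limma adjusted p = 1.61e-25). EGLN3, an oxygen-sensing prolyl hydroxylase that is itself induced by HIF1A, had 5.76, 5.97 and 6.61 in Vector, then 6.92, 6.98 and 7.07 in NKX3.1 and 8.53, 8.57 and 8.66 in R52C, with 8.09, 8.02, 7.99 and 7.84 in T164A. The groups did not overlap, and R52C was 5.74-fold above Vector. P4HA1, a subunit of the enzyme that hydroxylates collagen prolines, had 9.43, 9.56 and 9.64 in Vector, then 10.45, 10.51 and 10.67 in NKX3.1 and 11.81, 11.88 and 11.90 in R52C, with 10.13, 9.98, 10.15 and 10.09 in T164A. It was again highest in R52C, 4.94-fold above Vector, with no overlap between any groups. ANKRD37, a small ankyrin-repeat gene, rose by 1.54 ± 0.13 to 6.97 ± 0.18.

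The secreted factors went down. ADM, the vasodilator peptide adrenomedullin, had 9.23, 9.34 and 9.56 in Vector, then 8.71, 8.88 and 8.997 in NKX3.1 and 2.99, 3.21 and 3.70 in R52C, with 8.12, 8.05, 8.09 and 8.01 in T164A. The R52C libraries were near the floor, 1 of 6 under it, and adrenomedullin transcript was at least 68.8-fold lower in R52C with that value raised to 3. VEGFA, the vascular growth factor, had 13.58, 13.71 and 13.82 in Vector, then 13.501, 13.51 and 13.58 in NKX3.1 and 12.83, 12.85 and 12.86 in R52C, with 11.87, 11.94, 11.80 and 11.89 in T164A. R52C lay below Vector by 0.85, without overlap, and T164A lay below R52C. CA9, a cell surface carbonic anhydrase widely used as a hypoxia marker, was at 3.31, 3.78 and 4.44 in Vector and under the floor in all 6 R52C libraries, at least 1.77-fold lower, and at 4.88, 4.39, 3.52 and 4.86 in T164A.

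For T164A against Vector, 21 members were higher and 6 lower, beside 82.2% of all genes called, 40.6% higher and 41.6% lower. At 2-fold or more, 11 were higher and 5 lower, against 19.2% and 22.2% of all genes. Without overlap of libraries 20 were higher and 6 lower, as were 36.6% and 34.5% of all genes. The median change was 0.59 for members and -0.04 for all genes. With every library shifted to 1 median, where T164A otherwise stood 0.18 above Vector, 10 members were lower instead of 6, with HK1, PFKFB3, SLC16A3 and ANKRD37 added. This comparison shares its 6 Vector libraries with the others, so changes in R52C and T164A are set side by side and not counted as separate support.

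Among the enzymes, 12 of 15 were higher in T164A and ENO2 was lower. The largest rise was that of TPI1, at 2.04 ± 0.048 (4.12-fold, limma adjusted p = 3.04e-23), against 1.65 in R52C. ENO1, the ubiquitous enolase, rose by 1.84 to 14.98 ± 0.012 (n = 4), against 1.24 in R52C. Its values were 14.98, 14.97, 14.999 and 14.99, all above the highest Vector library at 13.35. PGK1 rose by 1.48, GPI by 1.42, ALDOA by 1.32 and GAPDH by 1.08. These 4 enzymes thus rose in T164A as they did in R52C. PKM rose by 0.66 to 14.94 ± 0.010, and HK2 rose by 0.59 to 11.32 ± 0.021. The muscle and platelet phosphofructokinases PFKM and PFKP rose by 0.49 and 0.42, and PGAM1 by 0.71. PFKL rose by 0.16 with overlapping groups, and was at -0.018 at equal medians. ENO2 fell by 0.62 to 8.98 ± 0.041. HK1 (-0.044) and ALDOC (0.12) were not called. PFKFB4 was 2.56-fold lower, at 8.36 ± 0.11, below both Vector replicates 1 to 3 (mean 10.02) and 4 to 6 (9.42). PFKFB3 was not called at -0.013. Its mean was 10.41 in Vector replicates 1 to 3 and 10.70 in 4 to 6, with T164A between them at 10.54. With Vector replicates 1 to 3 alone, PFKFB3 (0.14, limma adjusted p = 0.00449) and HK1 (0.087, limma adjusted p = 0.00561) were called higher.

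LDHB was the member that set T164A most apart at the end of the pathway. It had 11.76, 11.92 and 12.16 in Vector, then 11.76, 11.81 and 11.95 in NKX3.1 and 12.42, 12.49 and 12.53 in R52C, with 14.03, 14.03, 14.06 and 14.03 in T164A. Vector and NKX3.1 overlapped, and every T164A library lay above every other, 4.3-fold over Vector (log2 2.11 ± 0.060, limma adjusted p = 1.77e-21). LDHA rose by 1.498, close to its 1.66 in R52C.

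Of the transporters, SLC2A1 fell 3.27-fold, SLC2A3 rose 4.38-fold, SLC16A1 rose by 0.87 to 12.58 ± 0.042, and SLC16A3 was not called at -0.048. PDK3 rose by 2.03 ± 0.092 and PDK1 by 0.88 ± 0.058. Both kinases had thus risen in R52C and in T164A. HIF1A was at 12.03, 12.15 and 12.41 in Vector, then 11.97, 11.98 and 12.02 in NKX3.1 and 11.66, 11.71 and 11.77 in R52C, with 10.99, 10.96, 11.08 and 10.99 in T164A. It was lowest in T164A, 2.24-fold under Vector, and the 4 groups were separate, although the lowest Vector library was close to NKX3.1. Of its known targets, EGLN3 rose by 1.92 and P4HA1 by 0.53, VEGFA was 3.55-fold lower and ADM 2.46-fold lower. BNIP3 was 0.20 higher, against 2.42 in R52C, and this small rise was no longer called at equal medians (0.02). CA9 and ANKRD37 were not called.

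The comparison of NKX3.1 with Vector addressed how libraries with the wild type differed from those with the empty vector. As deposited, 18 members were higher and 8 lower, beside 41% of all genes called, 21.6% higher and 19.4% lower. The changes were small, since ALDOC alone passed 2-fold, at 1.02 ± 0.056 (2.03-fold, limma adjusted p = 8.42e-14), beside 5.26% of all genes higher by that much, and no member was lower by 2-fold, beside 0.117%. Without overlap 11 members were higher and 7 lower, as were 12.3% and 11.6% of all genes. Without Vector replicate 3 or 4, no member reached 2-fold. The median was 0.16 for members and -0.01 for all genes. At equal library medians the split of all calls moved from 52.7% to 35.6% higher, GAPDH, PGAM1 and PFKP were no longer called, and PKM and LDHB were called lower. PKM was called higher instead with quantile normalization, at 0.14 (limma adjusted p = 2.23e-05). It was also called higher with Vector replicates 1 to 3 alone, at 0.095 (limma adjusted p = 0.000899). With Vector replicates 4 to 6 alone GAPDH was at -0.0014.

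The next largest rises were those of P4HA1 (0.98 ± 0.039), EGLN3 (0.94 ± 0.095), BNIP3 (0.83 ± 0.047) and GPI (0.65 ± 0.055). All 4 were separate from Vector, and they are genes with large rises in R52C. PDK1 rose by 0.53, PGK1 by 0.52, PDK3 by 0.47, TPI1 by 0.46, ALDOA by 0.44, ANKRD37 by 0.43 and LDHA by 0.42. PFKM, ENO1, ENO2, GAPDH, PGAM1 and PFKP rose by 0.12 to 0.26. PFKP, the smallest of these, was not called in several alternatives, among them the fit of these groups alone (limma adjusted p = 0.0738). Of the 8 that fell, ADM changed most, by -0.48 ± 0.098, followed by PFKFB3 (-0.30), SLC16A3 (-0.28) and SLC2A1 (-0.20). HIF1A, VEGFA and both hexokinases fell by 0.13 to 0.18. PKM, LDHB, PFKL, PFKFB4, SLC2A3, SLC16A1 and CA9 were not called. For PFKFB4 the mean of NKX3.1, 9.86, lay between those of Vector replicates 1 to 3 (10.02) and 4 to 6 (9.42). With Vector replicates 1 to 3 alone PFKFB4 was called lower, at -0.16 (limma adjusted p = 0.00429).

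The R52C-like share also differed between these groups, at 24.8% to 30.7% in NKX3.1 and 5.62% to 10.3% in Vector. Within Vector the members differed in how they ran beside it. Replicate 4 had the lowest share, and its levels of GPI (11.41) and GAPDH (13.57) lay above those of replicates 1 to 3. Its level of PDK1 (8.12) was the lowest in Vector. Replicate 6 had the highest share and the highest levels of PDK1 (8.47) and BNIP3 (9.49) in Vector. The part of the share in the changes of the members was not tested. The mean profile of R52C replicates 4 to 6 was subtracted from each library in its own share, on the linear scale. This covered the 15992 genes that stayed above the floor in all 12 libraries. Because the share was larger in NKX3.1, this step lowers NKX3.1 against Vector for any gene much higher in R52C. The remainder is scaled up to a whole library, so the step also raises NKX3.1 against Vector for any gene much lower in R52C. Both happen whatever the source of the difference, so the step cannot tell where a rise or fall came from. Of the 32 members among them, 2 were then higher and 8 lower, against 17 and 8 of the same genes as deposited. Calls were lost across the table too. Of all 15992 genes, 13.9% were called after subtraction, 1.82% higher and 12.1% lower, against 47.6% as deposited, 3036 genes higher and 4569 lower. CA9 was lost to the floor.

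**Figure D3:**
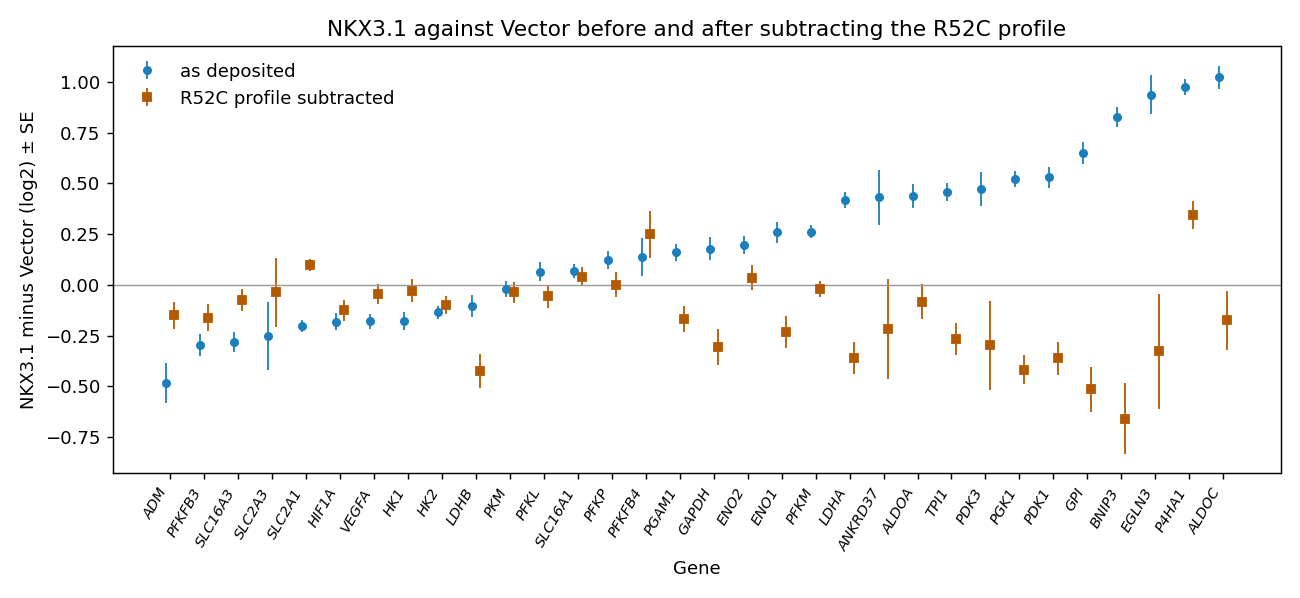
Change of each of 32 members in NKX3.1 against Vector (log2 ± SE from limma, 6 libraries each), as deposited and after the R52C profile was subtracted from every library in its R52C-like share. The rises of ALDOC, EGLN3, BNIP3 and GPI at the right end do not remain, and P4HA1 falls from 0.98 to 0.34. The share was larger in NKX3.1 than in Vector. The step therefore lowers any member much higher in R52C and raises any much lower, whatever the source of the difference.

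P4HA1 was called higher at 0.34 ± 0.069 (limma adjusted p = 0.00393), but was at 0.18 and not called with the share taken as the median ratio. SLC2A1, which was lower as deposited, was higher at 0.097 ± 0.031 (limma adjusted p = 0.046). SLC2A1 was much lower in R52C, so the step itself moves it up, and the p-value takes the share as known. With Vector replicates 4 to 6 alone SLC2A1 was at 0.083 and not called (limma adjusted p = 0.0715). ALDOC, the aldolase with the largest deposited rise, was at -0.17 ± 0.14 and not called, and with the median ratio it was called lower, at -0.72. EGLN3 was at -0.33 ± 0.28 and not called either. The 8 lower members were BNIP3 (-0.66 ± 0.17), GPI (-0.52 ± 0.11), LDHB (-0.42 ± 0.083), PGK1 (-0.42 ± 0.071), PDK1 (-0.36 ± 0.082), LDHA (-0.36 ± 0.080), GAPDH (-0.31 ± 0.089) and TPI1 (-0.27 ± 0.077). Of these, 7 had been called higher as deposited, and LDHB had not been called.

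The result of the subtraction depended on the Vector libraries. In 21 of the 33 members Vector replicates 1 to 3 did not overlap replicates 4 to 6, 19 of them lower in the first 3, while 14.3% of all genes were higher and 19.7% lower in that way. No label names such a split. NKX3.1 had 0 such members, beside 6.02% of all genes higher and 7.99% lower, and R52C had 1 higher and 7 lower, beside 7.25% and 8.5%. GAPDH was at 13.25 on average in replicates 1 to 3 and 13.61 in replicates 4 to 6, GPI at 11.18 and 11.51, and LDHB at 11.78 and 12.09. PFKFB4 went the other way, at 10.02 and 9.42, as did VEGFA at 13.82 and 13.59. After subtraction, 2 members were higher and 2 lower with Vector replicates 1 to 3 alone, when 5.74% of all genes were called, 286 higher and 646 lower. With replicates 4 to 6 alone 2 members were higher and 17 lower, when 28.8% of all genes were called, 1063 higher and 3576 lower. As deposited, the member counts were 19 and 8 with the first 3 and 17 and 10 with the last 3, beside 39.6% and 40.6% of all genes called.

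Set directly against R52C, NKX3.1 had 11 members higher and 21 lower, beside 80.1% of all genes called, 39.2% higher and 41% lower. At 2-fold or more 4 members were higher and 12 lower, against 20.8% and 14.6% of all genes, and without overlap 11 and 21, against 33.1% and 35.5%. The 4 were ADM, at least 49.2-fold higher, SLC2A1 (7.73-fold), SLC16A3 (2.52-fold) and SLC2A3 (2.41-fold). Thus 3 of the 4 transporters were higher with the wild type, and the enzymes were mostly lower. BNIP3 was 3.02-fold lower, EGLN3 3-fold and ALDOC 2.97-fold. At equal library medians, where NKX3.1 otherwise stood 0.22 above R52C, 7 members were higher. Against T164A, NKX3.1 had 10 members higher and 22 lower, beside 81.9% of all genes called, 42.3% higher and 39.6% lower. At 2-fold or more the counts were 3 and 7, against 22.5% and 17%, and without overlap 10 and 21, against 37% and 37.4%. LDHB was 4.63-fold lower and SLC2A3 5.21-fold lower, and VEGFA was 3.14-fold higher. In R52C against T164A, 17 were higher and 14 lower, beside 83.8% of all genes called, 38.5% higher and 45.2% lower. At 2-fold or more they were 7 and 6, against 21.3% and 25%, and without overlap 18 and 14, against 35.6% and 42.5%. That background turned with scaling, since 46.0% of all calls were higher as deposited and 58.0% at equal medians, while the members then split into 19 higher and 12 lower. ALDOC was 5.56-fold and BNIP3 4.67-fold higher in R52C, and SLC2A3 was 12.6-fold and LDHB 2.94-fold lower.

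The balance within pairs of isozymes was taken as the difference of their log2 levels inside each library, so that gene length and library scaling cancel when groups are compared. These differences are described by group and carry no test. The R52C-like share, larger in NKX3.1 than in Vector, does not cancel in them, and its part was not tested. LDHB minus LDHA was -1.58 ± 0.017 in R52C, -0.997 ± 0.067 in NKX3.1, -0.47 ± 0.077 in Vector and 0.13 ± 0.029 in T164A (mean ± SD). No groups overlapped, and the balance lay furthest towards LDHA in R52C and towards LDHB in T164A. ALDOC minus ALDOA was -2.89 ± 0.042 in R52C, -3.39 ± 0.045 in NKX3.1, -3.98 ± 0.12 in Vector and -5.18 ± 0.10 in T164A, again with 4 separate groups. ENO2 minus ENO1 was -4.13 ± 0.013, -3.61 ± 0.062, -3.55 ± 0.27 and -6.005 ± 0.041 in the same order, so the balance lay furthest towards the ubiquitous enolase in T164A. HK2 minus HK1 was -1.36 ± 0.091 and -1.32 ± 0.040 in Vector and NKX3.1, which overlapped, and -0.73 ± 0.040 and -0.73 ± 0.039 in R52C and T164A, which also overlapped.

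**Figure D4:**
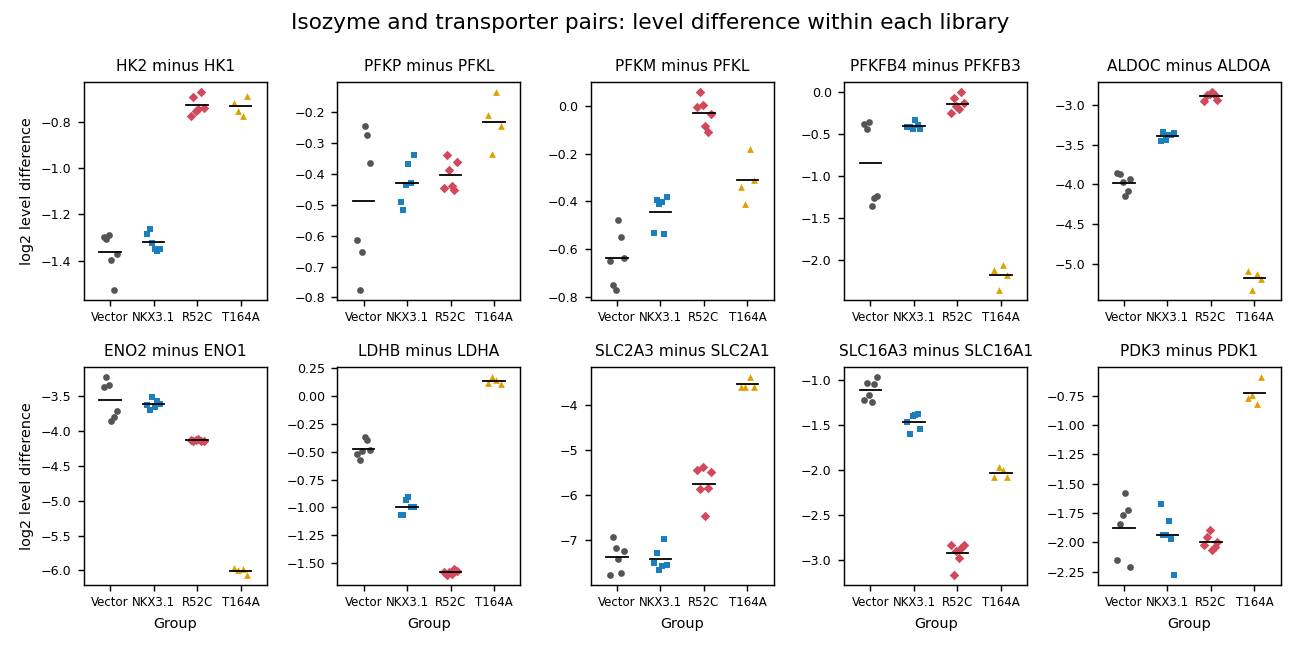
Difference of log2 level between the members of 10 pairs of isozymes or related transporters within each library, by group; points are libraries and bars are group means. The axes differ between panels. LDHB minus LDHA runs from -1.58 in R52C to 0.13 in T164A, and the 4 groups do not overlap.

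Among the transporters, SLC16A3 minus SLC16A1 was -2.92 ± 0.13 in R52C, -1.46 ± 0.090 in NKX3.1, -1.11 ± 0.12 in Vector and -2.03 ± 0.054 in T164A. The balance thus lay furthest towards MCT1 in R52C, and no groups overlapped. SLC2A3 minus SLC2A1 was -5.74 ± 0.41, -7.42 ± 0.25, -7.37 ± 0.33 and -3.53 ± 0.11 in the same order, with Vector and NKX3.1 overlapping. PDK3 minus PDK1 was between -1.88 and -2.00 on average in Vector, NKX3.1 and R52C, whose libraries overlapped, and -0.73 ± 0.10 in T164A. PFKFB4 minus PFKFB3 was -2.18 ± 0.13 in T164A and -0.13 ± 0.093 in R52C. In Vector it fell into 2 sets, with replicates 1 to 3 and 4 to 6 apart, and its mean of -0.84 describes neither. The same replicates of Vector were apart for ENO2 minus ENO1, at -3.37 to -3.22 and -3.85 to -3.71. They also did not overlap, by smaller gaps, for PFKP minus PFKL, PFKM minus PFKL, HK2 minus HK1 and LDHB minus LDHA. The Vector means of these pairs lie between 2 sets as well, except that of LDHB minus LDHA. That mean, -0.47, lies within the range of replicates 4 to 6. PFKM minus PFKL was -0.64 ± 0.11 in Vector and -0.027 ± 0.061 in R52C, with -0.44 ± 0.071 in NKX3.1 and -0.31 ± 0.096 in T164A. PFKP minus PFKL overlapped among Vector, NKX3.1 and R52C, and T164A, at -0.23 ± 0.083, overlapped Vector but not NKX3.1 or R52C.

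Further genes of these pathways were read from lists chosen by function, and their counts stand beside the shares of all genes called against Vector, 42.2% higher and 41.6% lower in R52C, 40.6% and 41.6% in T164A, and 21.6% and 19.4% in NKX3.1. Of 8 regulators of HIF, 6 were tested, and in R52C against Vector 4 were higher and 2 lower. EPAS1, which encodes HIF2A, a paralogue of HIF1A, was at 5.21 in R52C, 11.16 in T164A, 12.14 in NKX3.1 and 12.47 in Vector. Its change in R52C was -7.27 on the log2 scale (limma adjusted p = 4.69e-30). HIF1AN, the asparagine hydroxylase that restrains HIF, fell by 0.88. ARNT2, a dimerization partner, rose by 3.28 in R52C and by 2.75 in T164A, and VHL, the ligase component that removes HIF, rose by 1.23 in R52C. EGLN1, the main oxygen sensor of the family, rose by 1.71 in T164A, where 5 of the 6 were higher and EPAS1 had a change of -1.32. In NKX3.1 against Vector 3 were higher and 2 lower.

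Of 20 other known HIF targets, 9 were higher and 11 lower in R52C, 4 higher and 11 lower in T164A, and 6 higher and 10 lower in NKX3.1, each against Vector. BNIP3L, a relative of BNIP3 in mitochondrial clearance, rose by 2.25 in R52C, and AK4, a mitochondrial adenylate kinase, by 1.94. P4HA2, the paralogue of P4HA1, had a change of -2.99 in R52C, opposite to P4HA1. In T164A PPFIA4 rose by 1.93 and LOX, a collagen cross-linking oxidase, by 1.42, and NDRG1 had a change of -2.20. In NKX3.1 the changes were smaller, with BNIP3L at 0.64, PPFIA4 at 0.55, LOX at -0.46 and DDIT4 at -0.42.

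At the entry of pyruvate into mitochondria, 7 of 11 genes were higher and 3 lower in R52C, 8 higher and 1 lower in T164A, and 6 higher and 3 lower in NKX3.1. MPC2, a subunit of the mitochondrial pyruvate carrier, rose by 2.75 in R52C and 1.08 in NKX3.1 and had a change of -0.20 in T164A. PDHB, a subunit of pyruvate dehydrogenase, rose by 2.04 in R52C, 1.74 in T164A and 0.55 in NKX3.1. PDP1, the phosphatase that opposes the PDK kinases, changed by -1.61 in R52C and -0.45 in NKX3.1. PDK4 had a mean of 5.69 in T164A and one below the floor in each of the other 3 groups.

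Of 16 other glycolytic enzymes, 11 were tested, and 5 were higher and 5 lower in R52C, 4 and 5 in T164A, and 4 and 2 in NKX3.1. BPGM, which makes 2,3-bisphosphoglycerate, rose by 2.11 in R52C, 2.06 in T164A and 0.59 in NKX3.1. PGM1, which links glycogen to glycolysis, rose by 1.40 in R52C, 1.77 in T164A and 0.31 in NKX3.1. HKDC1, a hexokinase relative, was at 4.80 in Vector and under the floor on average in R52C. LDHC was under the floor on average in Vector and R52C and at 5.77 in T164A. TIGAR, listed under its older symbol C12orf5, changed by -0.31 in NKX3.1, and PFKFB2 by -0.10. All 7 pentose phosphate genes were tested, with 4 higher and 3 lower in R52C, 6 higher and 0 lower in T164A, and 3 higher and 1 lower in NKX3.1. PGD, a dehydrogenase of that pathway, rose by 1.13 in R52C and in T164A and by 0.35 in NKX3.1, and TKT, its transketolase, by 0.92, 1.10 and 0.21. RPE, an epimerase of the pathway, changed by -0.49 in R52C and by -0.14 in NKX3.1.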

How the data were processed

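The deposited values are on a log2 scale, and how the authors normalized them is not given in the sources used here. Per the labels' protocols, RNA with a poly-A tail was prepared with an Illumina TruSeq kit. Per the submitters' processing notes, CASAVA 1.8.2, TopHat, Cufflinks and DESeq were used, with the builds GRCh37 and mm9, a mouse build that is listed alone for T164A. Taken off the log scale, a library's values added up to between 17256903 and 21506481. The number of reads is not known, and no counting interval could be formed.

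Of 56299 entries, 3473 without a symbol and 4178 sharing a symbol were left out, except that of a listed gene with several entries the one with the highest mean was kept, which left 48649 genes. The 14186 entries with a mean under 0 held noise with an SD of 1.00 and a 99.9 percentile of 2.81, so 3 was taken as the floor. The 21326 genes with a value over 3 in 4 or more libraries were tested. The 4 groups were fitted together with limma 3.58.1 under R 4.3.3, with a trend on expression. Tests were two-sided, with Benjamini-Hochberg adjustment over all genes tested, and a gene with an adjusted p under 0.05 is called. The fits were tested on simulated data. No libraries were identical, and every column was used.

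The R52C-like share is the peak of the density of linear ratios against R52C replicates 4 to 6 averaged. That average was also the profile subtracted. A first run had used log2 ratios and was replaced to keep to the design as written, after its output had been seen. The motif search used the RefSeq promoter table, which had no entry for SLC16A1, VEGFA and SLC2A3. Alternatives were scaling, the filter, the floor, shared symbols, the trend, the groups fitted, each library left out, parts of Vector and R52C, and subtraction. The median share and the subtraction with parts of Vector were added after seeing the data. The members, the lists and the R52C-like share were chosen with earlier results of these data known. All members are named, with values in every group for most that changed by at least 1 in a comparison or belong to an isozyme pair, and up to 2 called genes each way are named per list. The level of NKX3.1 itself and some genes that the rule for the lists would name are not reported here.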

Additional observations from a re-analysis of the deposited data

Results flagged for a closer look

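In 131 groups of 4 to 6 libraries, 5 held a library far from the others, and chance flags about 1 in 20 groups. R52C replicate 2 was lowest for ENO2, at 10.20 beside 10.26 for the next library, and for PKM, at 14.25 beside 14.30. T164A replicate 2 was lowest for LDHA, at 13.86, where the other 3 all lay at 13.92. T164A replicate 3 was highest for LDHB, at 14.06, where the other 3 all lay at 14.03. NKX3.1 replicate 5 was lowest for ANKRD37, at 5.47 beside 5.87.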

How the results depend on the processing

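No paired analysis was possible because the labels give the groups no shared replicate numbers. Under every alternative run to R52C against Vector, the counts of members called stayed within 1.5 times those reported. At equal library medians NKX3.1 against Vector had 0 members higher by 2-fold and 6381 of all genes lower (35.6% of calls higher, against 52.7%), T164A against Vector had 10 members lower, and NKX3.1 against R52C had 7 higher. With quantile normalization NKX3.1 against T164A had 5 members higher by 2-fold. Leaving out 1 library in turn gave 0 to 2 members higher by 2-fold in NKX3.1 against Vector.

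With the R52C profile subtracted, NKX3.1 against Vector had 2 members higher, 8 lower and 0 higher by 2-fold, and 291 of all genes higher and 1939 lower. With the share taken as the median ratio, members higher and lower were 1 and 11, with 0 higher and 1 lower by 2-fold, and all genes 331 and 2290. With the subtraction and Vector replicates 1 to 3 alone they were 2 and 2, with 0 by 2-fold, and all genes 286 and 646. With replicates 4 to 6 alone they were 2 and 17, with 0 higher by 2-fold, and 1063 of all genes were higher and 3576 lower. The last 3 of these settings were chosen after seeing the data.

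Members whose change had the other sign were, in log2 change, as follows. Under subtraction they were GPI -0.52, PFKL -0.057, PFKM -0.022, ALDOA -0.083, ALDOC -0.17, TPI1 -0.27, GAPDH -0.31, PGK1 -0.42, PGAM1 -0.17, ENO1 -0.23, LDHA -0.36, SLC2A1 0.097, PDK1 -0.36, PDK3 -0.30, BNIP3 -0.66, ANKRD37 -0.22, EGLN3 -0.33. With the median share they were GPI -0.86, PFKL -0.071, PFKM -0.063, PFKP -0.014, ALDOA -0.17, ALDOC -0.72, TPI1 -0.41, GAPDH -0.38, PGK1 -0.63, PGAM1 -0.21, ENO1 -0.31, LDHA -0.52, SLC2A1 0.13, PDK1 -0.57, PDK3 -0.46, BNIP3 -1.33, ANKRD37 -0.35. With Vector replicates 1 to 3 and subtraction they were HK1 0.11, GPI -0.27, PFKL -0.14, PFKM -0.0085, PFKFB4 -0.070, ALDOC -0.0045, TPI1 -0.14, GAPDH -0.091, PGK1 -0.28, PGAM1 -0.058, ENO1 -0.033, ENO2 -0.049, PKM 0.087, LDHA -0.23, SLC2A1 0.11, SLC16A3 0.025, PDK1 -0.33, PDK3 -0.23, BNIP3 -0.75, ANKRD37 -0.45, EGLN3 -0.53. With replicates 4 to 6 and subtraction they were GPI -0.76, PFKM -0.035, PFKP -0.13, ALDOA -0.30, ALDOC -0.34, TPI1 -0.40, GAPDH -0.52, PGK1 -0.55, PGAM1 -0.28, ENO1 -0.43, LDHA -0.49, SLC2A1 0.083, SLC2A3 0.036, SLC16A1 -0.033, PDK1 -0.39, PDK3 -0.36, BNIP3 -0.56, VEGFA 0.070, EGLN3 -0.13. As deposited with Vector replicates 1 to 3 alone they were, for NKX3.1 minus Vector, PFKL -0.0073, PFKFB4 -0.16, PKM 0.095, LDHB 0.051 and for T164A minus Vector, HK1 0.087, PFKFB3 0.14, SLC16A3 0.047. With replicates 4 to 6 alone they were, for NKX3.1 minus Vector, GAPDH -0.0014 and for R52C minus Vector, PFKFB4 0.021, PKM -0.090. At equal medians they were, for NKX3.1 minus Vector, PFKL -0.020, SLC16A1 -0.016 and for T164A minus Vector, PFKL -0.018, ALDOC -0.057 and for NKX3.1 minus R52C, HK2 -0.028 and for R52C minus T164A, PDK3 0.049. With quantile normalization they were, for NKX3.1 minus Vector, PKM 0.14 and for T164A minus Vector, ALDOC -0.042. Leaving out 1 library in turn gave -0.00711 to 0.0525 for PKM in R52C minus Vector, -0.0499 to 0.00971 for PKM in NKX3.1 minus Vector and -0.0498 to 0.0321 for PFKFB3 in T164A minus Vector. The cause was not tested. Beside these, 60 values lost their call and 43 gained one, and 3887 kept their sign and side of the threshold. Depth in reads is unknown, which limits CA9 and ADM near the floor most.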
